A study of Mus musculus with 7 samples.

Results

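The microRNAs described here are 6 muscle microRNAs that are linked to myocardin and its partner factors: mmu-miR-143, mmu-miR-145, mmu-miR-1, mmu-miR-133a, mmu-miR-133b and mmu-miR-499, written below without the mouse prefix. They were taken by name from the 611 mouse microRNAs on a 1-colour Agilent array, on which each of the 6 had 2 probes of 10 spots. Whole kidneys of 3 male homozygous megabladder mice (mgb-/-, numbered 2, 3 and 4) were set against those of 4 male wild-type mice (mgb+/+, numbered 1 to 4). All mice were 3.5 to 4 weeks old, none had a treatment named in the labels, and each array held the RNA of 1 mouse. The design text speaks of 4 mutants, but the samples hold no array of a mutant mouse 1. The labels call the mutant kidneys obstructed. Homozygotes carry the mutation in every cell, so a change in kidney cells themselves and a change that follows from the blocked bladder cannot be told apart.

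Myocardin, the product of Myocd, is a coactivator that binds serum response factor and switches on contractile genes in smooth muscle and heart. The megabladder line carries a transgene insertion that disturbs Myocd, and its bladder lacks normal smooth muscle. miR-143 and miR-145 are made from 1 primary transcript, are known targets of serum response factor and myocardin, and help to keep vascular smooth muscle contractile. miR-1 and the miR-133 microRNAs are the classic microRNAs of heart and skeletal muscle and also lie downstream of serum response factor. miR-499 is processed from an intron of Myh7b, a myosin heavy chain gene of slow and cardiac muscle. In the kidney, smooth muscle is found mainly in vessel walls and in the pelvis and ureter, so the comparison asks whether these microRNAs differ in whole kidney between the genotypes.

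The RefSeq annotation of GRCm38.p6 placed the precursors of miR-143 and miR-145 next to each other within the long noncoding gene Carmn. It placed 1 precursor of miR-1 beside 1 of miR-133a in each of 2 pairs, the precursor of miR-133b beside that of miR-206 in Lincmd1, and that of miR-499 within Myh7b. Mature sequences are given here for only 2 of the 6 members, miR-133b and miR-499. Their mature strands are shown with those of related muscle microRNAs on the array because strands that share a seed (bases 2 to 8, in capitals) are expected to pair with the same sites. Sequences run 5′ to 3′.
miR-133b: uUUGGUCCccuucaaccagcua
miR-499: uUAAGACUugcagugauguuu
miR-206: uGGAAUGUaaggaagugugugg
miR-208a: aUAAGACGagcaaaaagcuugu
miR-208b: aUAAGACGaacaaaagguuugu
In GRCm38.p6 the printed strand of miR-133b lay at chr1:20682834-20682855 and that of miR-206 at chr1:20679055-20679076, both on the plus strand, and that of miR-499 at chr2:155622893-155622913 on the plus strand. Those of miR-208a (chr14:54949072-54949093) and miR-208b (chr14:54975710-54975731) lay on the minus strand. miR-208a and miR-208b had the same seed, and miR-499 shared 6 of its 7 seed bases with both. Mature miR-133a and miR-133b are known to be nearly identical, so signal from one of them may have been read by the other's probes.

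Only miR-143 and miR-145 were well above background in most kidneys. A spot's call is the scanner software's flag for signal well above background. A microRNA was counted as above background on an array where at least 0.5 of the spots of 1 of its probes had that flag. By that measure miR-143 and miR-145 were above background on all 7 arrays, miR-1 and miR-133b on 2 arrays each, and miR-133a and miR-499 on none. Of the spots used, 59 of 59 in megabladder and 78 of 78 in wild-type kidneys were well above background for miR-143, and 58 of 60 and 77 of 77 for miR-145. The microRNAs of striated muscle gave 8 of 59 spots in megabladder and 10 of 80 in wild-type kidneys for miR-1, and 9 of 56 and 7 of 75 for miR-133b. miR-133a gave 0 of 60 and 0 of 75, and miR-499 gave 0 of 58 and 0 of 76.

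**Figure D1:**
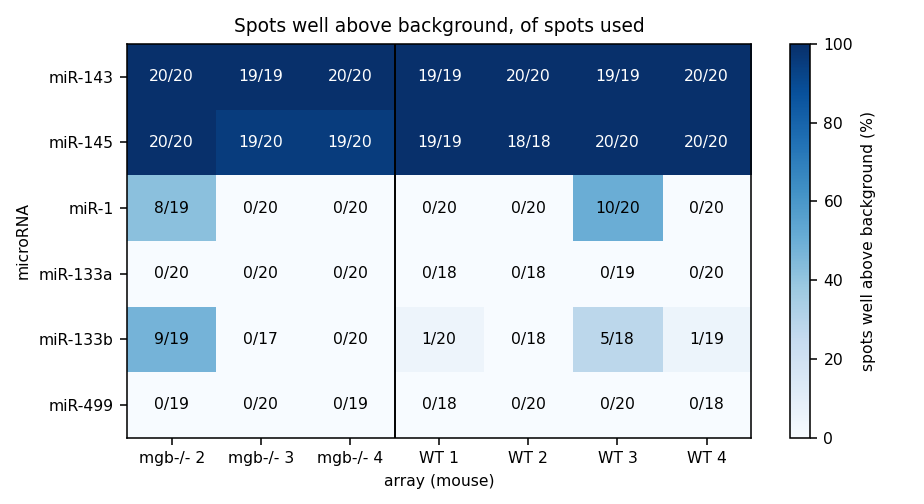
Share of spots well above background (colour, in %) for the 6 microRNAs (rows) on the 3 megabladder and 4 wild-type arrays (columns), with the number of flagged spots over spots used in each cell. miR-143 and miR-145 were flagged on nearly all spots of all arrays, while miR-1 and miR-133b stood out only on the arrays of megabladder mouse 2 and wild-type mouse 3.

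The arrays shared 1 slide and 1 scan, and each genotype filled a slide row of its own, so effects of row and of genotype cannot be told apart. The brightness used to scale each array, the 75th percentile over the 292 probes above background on all arrays, was 269.0, 333.4 and 223.5 scanner units in megabladder mice 2, 3 and 4, against 391.3, 440.1, 495.8 and 348.1 units in wild-type mice 1 to 4. All megabladder arrays were thus dimmer than all wild-type arrays. Among markers of kidney tubule, 3 of 4 microRNAs were above background on at least 3 arrays, and among those of neuron and liver 0 of 3 were. The labels name a separate mouse for each array but give no litters or dates of sampling, so p-values measure the spread between these 7 samples.

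miR-143 showed no difference between the genotypes that passed the test. This microRNA, abundant in vascular smooth muscle, had scaled levels of 7.48, 7.33 and 7.14 log2 units in megabladder mice 2, 3 and 4, against 7.39, 7.28, 7.21 and 7.03 log2 units in wild-type mice 1 to 4. The groups overlapped through most of their range, with the highest value in megabladder mouse 2 and the lowest in wild-type mouse 4. Means were 7.32 ± 0.17 in megabladder (SD, n = 3) and 7.23 ± 0.15 in wild-type kidneys (SD, n = 4). The difference, megabladder minus wild-type, was 0.09 log2 units (SE 0.13, 95% interval -0.20 to 0.39), or 1.07-fold, with a limma adjusted p of 0.771 over the 213 microRNAs above background on at least 3 arrays. In whole-kidney RNA, fewer cells of a type and less of a microRNA per cell cannot be told apart.

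miR-145, which targets regulators of smooth muscle cell state, had scaled levels of 4.78, 4.49 and 4.63 log2 units in megabladder mice 2, 3 and 4. Its wild-type levels were 4.54, 4.36, 4.40 and 4.29 log2 units in mice 1 to 4. Megabladder mice 2 and 4 lay above all wild-type mice and megabladder mouse 3 below wild-type mouse 1, so the groups overlapped. Means were 4.63 ± 0.15 in megabladder (SD, n = 3) and 4.40 ± 0.11 in wild-type kidneys (SD, n = 4). The difference of 0.24 log2 units (SE 0.11, 95% interval -0.02 to 0.49), or 1.18-fold, did not pass in limma (adjusted p = 0.247, unadjusted 0.0661). With normexp background correction the difference of miR-145 was 0.47 (unadjusted p = 0.0304, adjusted 0.0856 in limma). In that setting the median over all 213 was 0.40, and 104 of them had a limma unadjusted p under 0.05.

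**Figure D2:**
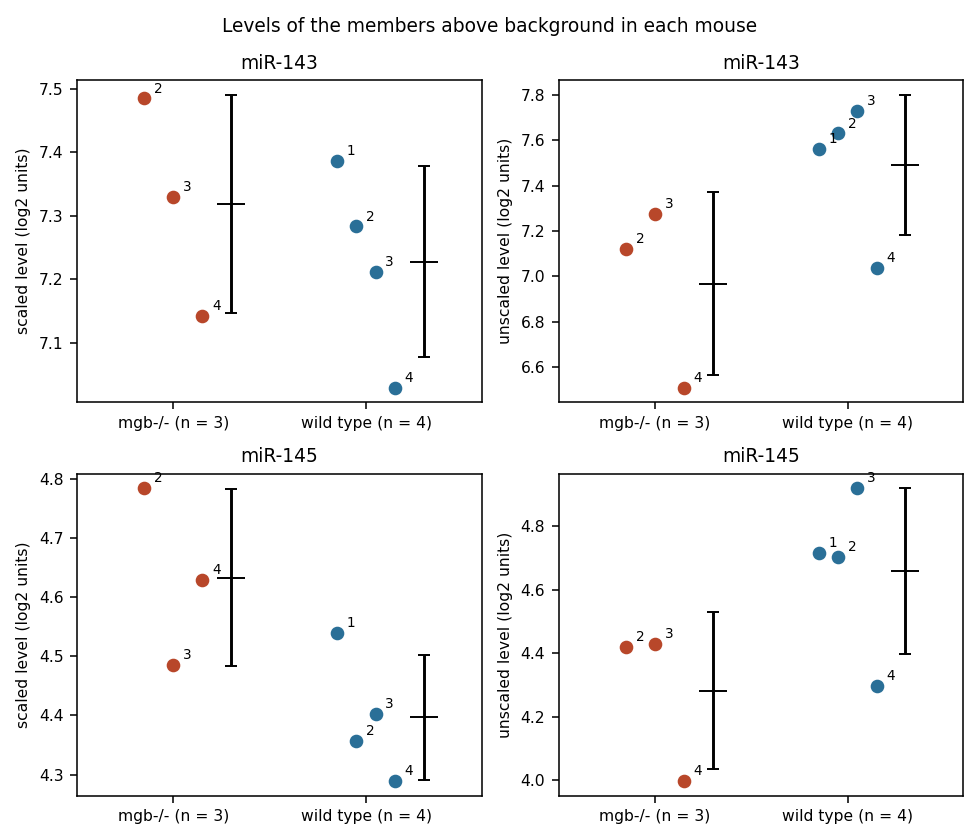
Levels of miR-143 (top) and miR-145 (bottom) in each mouse, scaled (left) and unscaled (right), in log2 units, with mouse numbers beside the points and bars for the mean and SD of 3 megabladder and 4 wild-type kidneys. Scaled levels overlapped with the megabladder mean higher, and unscaled levels overlapped with the megabladder mean lower.

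None of the 6 members was called at an adjusted p under 0.05, with 2 tested and 4 not tested because they were above background on fewer than 3 arrays. Of the 213 microRNAs tested, 7 were called (3.29%), 2.82% higher and 0.469% lower in megabladder kidneys, and 23.0% had an unadjusted p under 0.05, which neither member had. Groups did not overlap for 22.1% of the 213, and overlapped for both members. Both tested members had a positive difference, as did 68.1% of the 213. The differences of the members, 0.09 and 0.24, stood beside a median of 0.09 log2 units over all 213 and an interquartile range of -0.04 to 0.30.

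The sign of both differences depended on how the arrays were scaled. Unscaled levels of miR-143 were 7.12, 7.27 and 6.51 log2 units in megabladder mice 2, 3 and 4, against 7.56, 7.63, 7.73 and 7.04 in wild-type mice 1 to 4. Unscaled levels of miR-145 were 4.42, 4.43 and 4.00 log2 units in megabladder mice 2, 3 and 4, against 4.72, 4.70, 4.92 and 4.30 in wild-type mice 1 to 4. Both were lower in megabladder mouse 4 than in any other mouse, and in both wild-type mouse 4 lay below megabladder mice 2 and 3. The unscaled difference was -0.52 (95% interval -1.10 to 0.06, limma adjusted p = 0.132) for miR-143 and -0.38 (-0.83 to 0.07, 0.158) for miR-145, while the median over all 213 microRNAs was -0.49. With the 75th percentile of all mouse probes as the scale, neither microRNA's groups overlapped: miR-143 was at -0.63 (95% interval -1.22 to -0.04, limma unadjusted p = 0.0375, adjusted 0.0969) and miR-145 at -0.49 (-1.08 to 0.10, adjusted p = 0.144). On that scale the median over all 213 was -0.60, and 95 of the 213 had a limma unadjusted p under 0.05. The share of the 213 without overlap was not counted on that scale. Set against the median of all 213, miR-143 stood at 0.00 and miR-145 at 0.15 in the scaled values, and at -0.03 and 0.11 unscaled. With quantile scaling the order turned, to 0.21 for miR-143 and -0.13 for miR-145.

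Each probe was also examined alone, since a microRNA's level is a mean over its probes. The brighter probe of miR-143 (A_54_P2405) gave 169.8, 190.3 and 111.3 scanner units in megabladder mice 2, 3 and 4, against 232.3, 242.8, 259.6 and 163.3 units in wild-type mice 1 to 4. Its coefficient of variation between spots was 2.81% to 8.37% over the arrays. The dimmer probe of miR-145 (A_54_P2314) gave 16.5, 16.4 and 12.3 units in megabladder mice 2, 3 and 4, against 19.9, 19.8, 23.6 and 14.8 units in wild-type mice 1 to 4. Its variation between spots was wider, at 7.61% to 19.5%. Scaled, this dimmer probe ran from 14.7 units in wild-type mouse 4 to 21.2 in megabladder mouse 2, near the floor of 11.4 units. After scaling, the probes of each microRNA gave like differences: 0.10 and 0.08 log2 units for miR-143 and 0.25 and 0.23 for miR-145, none past the threshold over 404 probes in limma (adjusted p = 0.239 to 0.791).

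The balance between both products of the shared transcript was examined as a log ratio within each array, which the scaling factor of an array cannot move. miR-145 minus miR-143 was -2.70, -2.84 and -2.51 log2 units in megabladder mice 2, 3 and 4, against -2.85, -2.93, -2.81 and -2.74 in wild-type mice 1 to 4. Megabladder mice 2 and 4 had the highest ratios, and megabladder mouse 3 lay among the wild-type mice. The mean was -2.69 ± 0.17 in megabladder (SD, n = 3) and -2.83 ± 0.08 in wild-type kidneys (SD, n = 4), a difference of 0.14 (2-sided exact permutation p = 0.171, where the smallest that 35 splits allow is 0.0286). The value itself reflects probe brightness as well as abundance, and bears only on whether the microRNAs changed unequally.

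**Figure D3:**
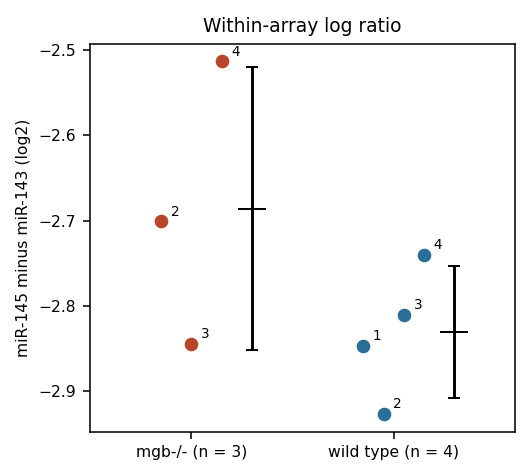
Log2 signal of miR-145 minus that of miR-143 on each array, with mouse numbers and bars for the mean and SD of 3 megabladder and 4 wild-type kidneys. Megabladder values ran from -2.84 to -2.51 and wild-type values from -2.93 to -2.74, so the groups overlapped.

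Across the 7 arrays, the microRNAs with the smallest distance from miR-143 were miR-23b, miR-125b-5p, miR-27b, miR-338-3p and miR-151-5p. The distance was the mean absolute difference in log2 level after each microRNA was centred on its own mean. It was 0.055 log2 units for miR-23b and 0.086 for miR-151-5p, against a median of 0.21 over 212 microRNAs. For miR-145 the closest were miR-139-5p (0.074), miR-30b*, miR-324-3p, miR-92b and miR-361 (0.096), with the same 7 arrays and a median of 0.20. Of these, miR-30b* and miR-92b were at the floor of 3.51 log2 units on all wild-type arrays and miR-324-3p averaged 3.55 there, so their small distances come in part from the floor and do not show that they followed miR-145. miR-143 came 6th in likeness to miR-145 and miR-145 came 11th in likeness to miR-143, at 0.10 log2 units. These are descriptions over arrays that share 1 slide.

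Among striated muscle microRNAs, miR-1 was measured above background in 1 kidney of each genotype. Its brighter probe (A_54_P2258) gave 11.3, 3.41 and 4.05 scanner units in megabladder mice 2, 3 and 4, against 9.35, 9.35, 14.4 and 7.19 units in wild-type mice 1 to 4. Of its 10 spots, 8 were well above background in megabladder mouse 2 and 10 in wild-type mouse 3, and none in the other 5 mice. The dimmest probes that counted as above background gave 8.89 to 12.4 units on megabladder arrays and 9.60 to 13.0 units on wild-type arrays, so values of miR-1 on those 5 arrays carry only that upper bound. On each array the brighter probe exceeded the 95th percentile of negative control spots, which was 3.06 to 3.85 units on megabladder and 1.81 to 3.16 units on wild-type arrays. The other probe of miR-1 gave -1.28 to -0.33 units on megabladder and -1.53 to -0.04 units on wild-type arrays, with 0 spots well above background.

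miR-133b, encoded beside miR-206, had a similar pattern. Its brighter probe (A_54_P1550) gave 12.9, 5.79 and 4.92 units in megabladder mice 2, 3 and 4, against 8.86, 9.28, 10.8 and 7.81 units in wild-type mice 1 to 4. It was above background in megabladder mouse 2, with 9 of 9 spots, and in wild-type mouse 3, with 5 of 8 spots. Single spots were flagged in wild-type mice 1 and 4. In wild-type mouse 2 a spot of 194.8 units was an outlier to the software and was left out. The other probe of miR-133b stayed between 0.88 and 1.96 units on megabladder arrays and between 1.73 and 3.41 units on wild-type arrays.

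miR-133a, made from precursors paired with those of miR-1, had no spot well above background among those used. Its brighter probe (A_54_P3683) gave 6.77, 2.97 and 3.28 units in megabladder mice 2, 3 and 4, against 5.32, 3.85, 5.72 and 3.57 units in wild-type mice 1 to 4. All of these lay below the dimmest probe above background on the same array, so they have no order. miR-499, with the seed shown above, had no signal apart from background: its probes gave -1.54 to 0.007 units on megabladder and -1.10 to 0.24 units on wild-type arrays, below the 95th percentile of negative control spots on all 7 arrays. No fold change between genotypes is given for these 4 microRNAs, because neither group was measured above background on most of its arrays.

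**Figure D4:**
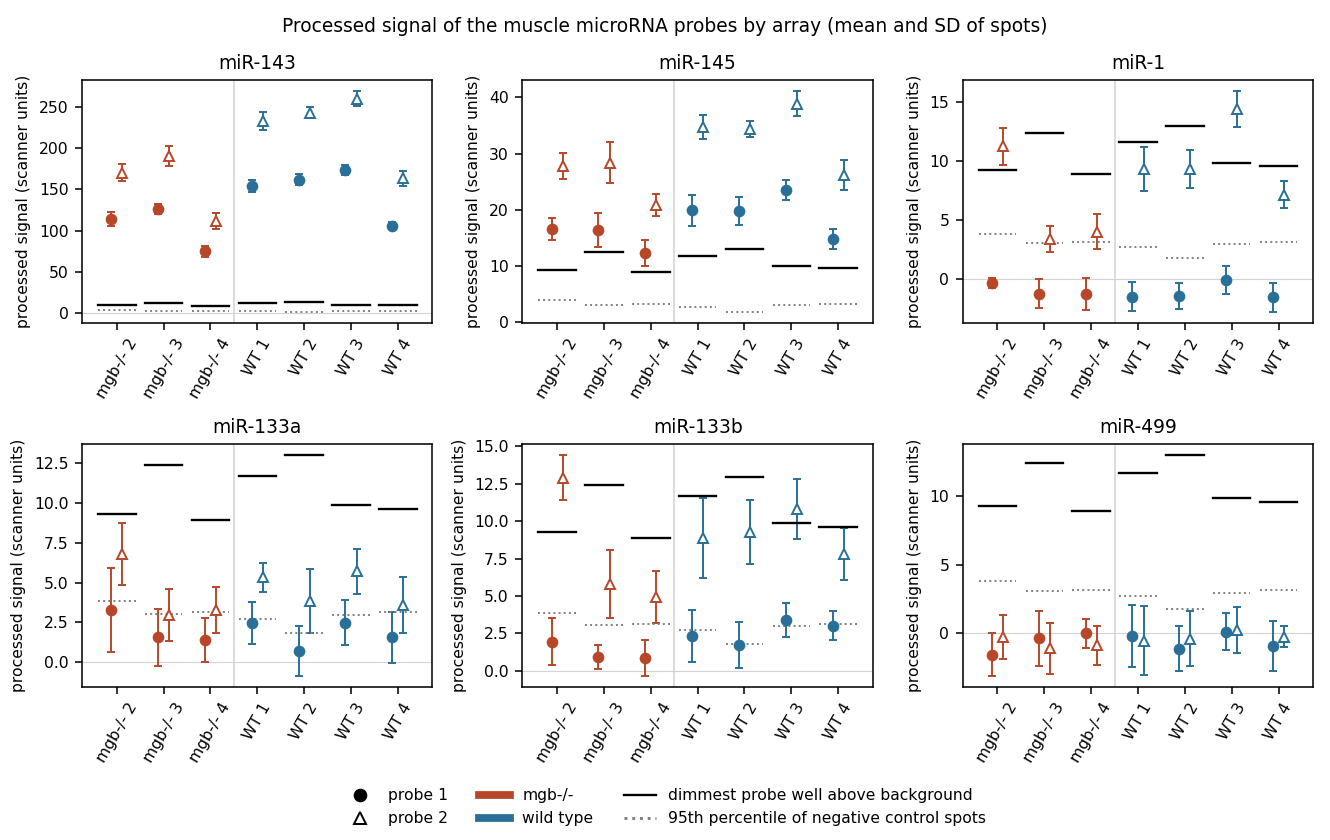
Processed signal in scanner units (mean and SD over spots, on an axis of its own for each microRNA) of both probes of the 6 microRNAs on the 3 megabladder and 4 wild-type arrays. Solid bars mark the dimmest probe well above background on each array and dotted bars the 95th percentile of negative control spots: the mean signals of both miR-143 and both miR-145 probes lay above the solid bars, and those of miR-499 lay below the dotted bars throughout.

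The kidneys with miR-1 and miR-133b above background were the same, that of megabladder mouse 2 and that of wild-type mouse 3. After scaling, the brighter probe of miR-1 had 14.5 units in megabladder mouse 2, against 10.1 units in wild-type mouse 3. Before scaling the order was the other way, at 11.3 units in megabladder mouse 2 and 14.4 in wild-type mouse 3. The brighter probe of miR-133b had 16.6 scaled units in megabladder mouse 2, against 7.56 in wild-type mouse 3, and was higher in megabladder mouse 2 before scaling too. These are values of 1 kidney of each genotype, with no test, and the other arrays give only a bound.

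Of 18 further muscle-related microRNAs and passenger strands that were listed, 13 were on the array and 7 were above background on at least 3 arrays. miR-206 of skeletal muscle, miR-208a and miR-208b of cardiac and slow muscle myosin genes, miR-490, miR-145* and miR-133a* had 0 spots well above background on all 7 arrays. The 7 measured ones are not specific to muscle, and 0 rose and 0 fell (limma adjusted p = 0.505 to 0.972), with a median of -0.02 log2 units against 0.09 over all 213. miR-486, from an intron of Ank1 and abundant in both red cells and muscle, averaged 5.45 ± 0.62 in megabladder (SD, n = 3) and 5.13 ± 0.19 log2 units in wild-type kidneys (SD, n = 4). miR-378 averaged 8.08 ± 0.27 in megabladder and 8.23 ± 0.15 log2 units in wild-type kidneys, and miR-221, which acts on the growth of vascular smooth muscle, 6.86 ± 0.40 and 6.95 ± 0.09. Differences were 0.32 for miR-486, -0.15 for miR-378 and -0.09 for miR-221.

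Cells that neighbour smooth muscle in vessel walls have their own marker microRNAs. The 2 endothelial markers, miR-126-3p and miR-126-5p, had differences of -0.06 and -0.23 log2 units. For stroma and pericytes, 4 of 6 listed microRNAs were tested, with differences of 0.38 to 0.59 and a median of 0.40. None of these 6 passed in limma, the stromal ones at adjusted p = 0.210 to 0.247, the range that holds miR-145. Whether stromal or vessel cell numbers take part in the value of miR-145 was not tested.

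**Figure D5:**
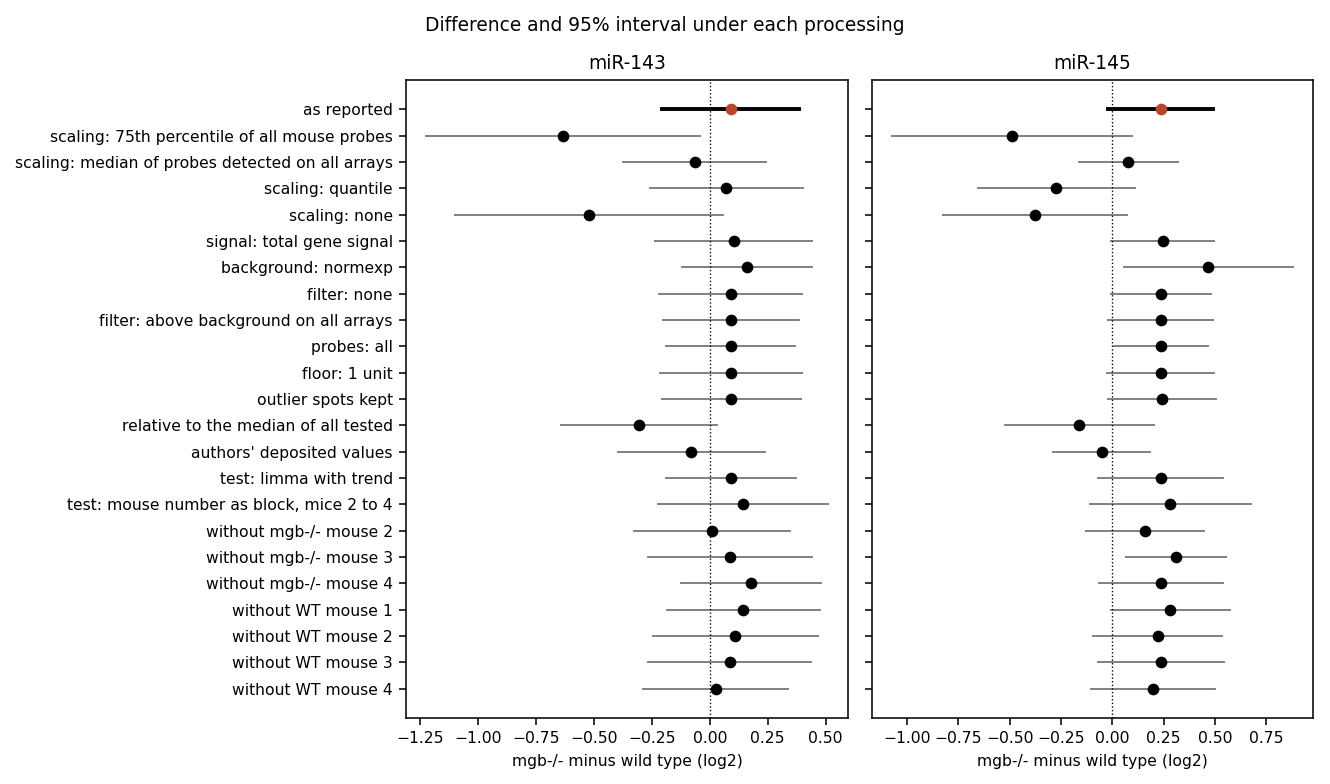
Difference of miR-143 (left) and miR-145 (right), megabladder minus wild type in log2 units, with 95% intervals, as reported and under each alternative. Signs turned with some scalings, at -0.63 for miR-143 and -0.49 for miR-145 with the 75th percentile of all mouse probes. On that scale the median over all 213 microRNAs was -0.60. No alternative gave an adjusted p under 0.05.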

How the data were processed

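RNA of 7 kidneys (100 ng each, Cy3) was read on 1 array per mouse, per the labels' protocols. The deposited scanner intensity values were written, per the file headers, by version 10.7.3.1 of Agilent Feature Extraction, background-subtracted and not scaled across arrays. A value table deposited by the authors gives further intensity values, with a median of 20 in every column, and the sources used here do not state its scale or centring. It correlated with the arrays' total gene signal at 0.898 to 0.987 (log2, across 191 microRNAs), and only names up to position 532 of 650 in alphabetical order were used, because values after that fitted the preceding name better.

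Outlier spots were left out and spots averaged per probe. Signals were scaled by the 75th percentile over 292 probes above background on all arrays, floored at 11.4 units and put on a log2 scale. A microRNA's level is the mean over its probes above background on at least 3 arrays. Genotypes were compared with lmFit and eBayes (limma 3.58.1, R 4.3.3) and Benjamini-Hochberg adjustment over 213 microRNAs, with a threshold of 0.05, and the fit was tested on simulated data. The normexp alternative (offset 50) used the median spot signal, since the files give no mean. The members, lists and tests were chosen with earlier results of these data known. Text names follow 3 rules: the 6 members, the muscle and marker lists, and the 5 microRNAs most like each tested member. The file headers name mm9, so coordinates are given only for RefSeq sequences of GRCm38.p6. The number of arrays limits the precision.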

Additional observations from a re-analysis of the deposited data

Results flagged for a closer look

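Over the 4 wild-type arrays, 23 measures of the 6 microRNAs were examined for a value far from the other 3. Chance gives such a value about 1 in 20 times where a measure varies continuously. There were 2, both for miR-1 in wild-type mouse 3. The share of its spots well above background was 50% there and 0 in the other wild-type mice. Any share above 0 would have been flagged beside those, so the rate of 1 in 20 does not apply to it. The dimmer probe of miR-1 (A_54_P2257) gave -0.0438 units in wild-type mouse 3, against -1.53 to -1.42 units in the others, all of them below background.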

How the results depend on the processing

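No alternative brought miR-143 or miR-145 past an adjusted p of 0.05 in limma, and the count of members called was 0 in the 20 alternatives run for it. The adjusted p ran from 0.0969 to 0.983 for miR-143 and from 0.0856 to 0.825 for miR-145. Signs were not stable. miR-143 turned to -0.63 with the 75th percentile of all mouse probes (unadjusted p = 0.0375), -0.066 with the median, -0.52 unscaled, -0.0804 in the authors' deposited values and -0.31 relative to each array's median over all tested microRNAs. miR-145 turned to -0.49 with all mouse probes, -0.27 with quantiles, -0.38 unscaled, -0.0512 in the authors' deposited values and -0.16 relative to each array's median. The median over all tested microRNAs was negative in these settings too. It was -0.60 with all mouse probes, -0.061 with the median, -0.14 with quantiles and -0.49 unscaled. In the authors' deposited values it was -0.049, and relative to each array's median -0.31. That relative setting was chosen after seeing the data, as was keeping outlier spots, and the array medians were 5.53 to 5.63 in megabladder and 4.99 to 5.38 in wild-type kidneys. For miR-145 normexp gave 0.47 (limma unadjusted p = 0.0304), beside a median of 0.40 over all 213, of which 104 had an unadjusted p under 0.05. With all probes of each tested microRNA kept, the difference of miR-145 stayed at 0.24 (limma unadjusted p = 0.0454, adjusted 0.251). Leaving out 1 mouse at a time gave 0.0079 to 0.18 for miR-143 and 0.16 to 0.31 for miR-145, which reached an unadjusted p of 0.0218 without megabladder mouse 3. The ratio of miR-145 to miR-143 turned to -0.34 with quantiles and was 0.31 with normexp (exact permutation p = 0.171 in both). It was 0.029 in the authors' deposited values (exact permutation p = 0.857) and 0.058 to 0.22 with single mice left out. Without megabladder mouse 4 it was 0.058. The count of members above background, 2, was 4 by the software's gene detection flag, 5 by its flag for positive and significant spots and 4 where 1 array sufficed. Mouse number was also the slide column. Deviations from the group means correlated between same-numbered arrays at r = -0.21, 0.0066 and 0.21 for mice 2, 3 and 4. Between arrays of unlike number r ran from -0.29 to 0.32. Whether slide column took part in the levels was not tested. The fit with the mouse number as a replicate block held mice 2 to 4 only, so it left out wild-type mouse 1. It gave 0.14 for miR-143 and 0.28 for miR-145, the same as leaving out that mouse with no block. Over all microRNAs it made 28 calls, against 0 without that mouse and with no block and 7 with all mice. The alternatives made 0 to 71 calls. The cause of these changes was not tested. Signal over background limits miR-1, miR-133a, miR-133b and miR-499.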

Other observations

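In the authors' deposited value table, whose floor is 20, miR-1 stood at 27, 20 and 20 in megabladder mice 2, 3 and 4, against 25, 24, 29 and 28 in wild-type mice 1 to 4. miR-133b stood at 28, 20 and 20 in megabladder mice 2, 3 and 4, against 24, 24, 27 and 28 in wild-type mice 1 to 4. For both, the megabladder kidneys other than that of mouse 2 were at the floor and no wild-type kidney was. By the software's gene detection flag, miR-1 and miR-133b were each detected in 1 of 3 megabladder and 4 of 4 wild-type kidneys. The share of all 611 mouse microRNAs with that pattern was not counted. By spots well above background, each was above background in 1 kidney of each genotype. In the authors' deposited value table miR-133a was above the floor in megabladder mouse 2 alone, at 23, and miR-499 was at 20 in every kidney. The 3 megabladder arrays were the dimmest before scaling, and the part of array brightness in these values was not tested.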
